A study of Mus musculus with 23 samples.

Results

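The genes described here are the itaconate synthase gene Acod1 and 8 genes for enzymes of the tricarboxylic acid (TCA) cycle or their cytosolic counterparts: Cs, Idh1, Idh2, Idh3a, Ogdh, Fh1, Mdh1 and Mdh2. They were taken by gene name from the count table, 9 of its 54532 genes, and all 9 were among the 16545 genes that passed the filter on low counts. Their poly(A) RNA was measured in 23 libraries of cardiac macrophages from C57BL/6 mice, obtained with magnetic beads as cells without the neutrophil antigen Ly6G that carried CD11b. All animals were homozygous for a loxP-flanked allele of Smad7, an inhibitory Smad of TGF-beta signalling. The S7fl/fl littermates had no Cre, and the MyS7KO mice also carried the LyzM-Cre transgene, so Cre itself differs between the genotypes and the deletion is limited to cells in which the lysozyme M promoter is active. Cells came from uninjured hearts (baseline: 3 S7fl/fl and 3 MyS7KO libraries), or from hearts 3 days (5 and 5) or 7 days (3 and 4) after permanent ligation of the left anterior descending coronary artery. Age and sex of the mice are not in the labels. Nor do the labels say that each sample was a separate heart, so a p-value here reflects the spread between samples, and that spread may be technical. Sex-linked reads, given below, place more than 1 animal in each baseline and day 3 group, without saying how many.

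The TCA cycle burns acetyl groups in the mitochondrion and supplies electrons to the respiratory chain and carbon skeletons for synthesis. In macrophages stimulated by inflammatory signals, Acod1 is known to be induced strongly, and its product diverts cis-aconitate out of the cycle into itaconate, which inhibits succinate dehydrogenase and modifies proteins that control antioxidant and inflammatory programmes. Inflammatory macrophages are known for a cycle interrupted at isocitrate dehydrogenase and succinate dehydrogenase, and reparative macrophages for one that runs complete.

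The stretches before the start sites of Acod1, Mdh2 and Cs are shown because, at day 3, Acod1 had the largest change of the 9 genes and Mdh2 the largest of the other 8, and Cs had the highest correlation with Mdh2 over the 23 libraries. They come from the RefSeq promoter table (build GRCm38.p6), which matched 8 of the 9 genes and not Idh3a. All 3 are on the plus strand and stop before the start of the gene model in the count table. Acod1 is shown over chr14:103046762-103046976, Mdh2 over chr5:135778399-135778479 and Cs over chr10:128337477-128337726. Capitals mark matches to the motifs named after the sequences.
Acod1: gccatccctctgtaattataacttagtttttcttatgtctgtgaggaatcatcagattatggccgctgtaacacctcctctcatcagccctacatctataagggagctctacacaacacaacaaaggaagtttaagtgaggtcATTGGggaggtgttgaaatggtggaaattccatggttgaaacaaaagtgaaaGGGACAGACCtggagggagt
Mdh2: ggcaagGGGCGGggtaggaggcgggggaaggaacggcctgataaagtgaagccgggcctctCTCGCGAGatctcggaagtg
Cs: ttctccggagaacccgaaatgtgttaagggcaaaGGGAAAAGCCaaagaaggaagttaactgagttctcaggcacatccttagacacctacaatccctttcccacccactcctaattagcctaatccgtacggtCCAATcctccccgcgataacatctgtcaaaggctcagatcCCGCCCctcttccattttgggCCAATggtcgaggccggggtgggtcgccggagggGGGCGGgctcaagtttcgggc

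Both strands of the 250 bases before each RefSeq start were searched. The letters GGGANNNNCC, a loose NF-kB pattern, were held by 17.6% of all 32851 windows in the table. In Acod1 they matched at position -55 from the RefSeq start and in Cs at -216. They also matched in a window of Idh1, Idh2, Ogdh and Fh1, and not in Mdh1 or Mdh2. The TATA box letters TATAAA (12.4% of windows) matched in Acod1 at -28 and in none of the other members with a window. The match at -28 lies past the end of the printed Acod1 stretch. The CCAAT box letters CCAAT (33.8%) matched once in Acod1, on the minus strand, and at 2 positions in Cs. Every other member with a window also held them, except Mdh2. The SP1 letters GGGCGG (32.7%) matched at 2 positions in Cs and 1 in Mdh2, and in every other member with a window except Acod1. The palindrome CTCGCGAG, searched because it was noticed in the Mdh2 window, was held by 0.761% of windows and matched in Mdh2 at 3 positions (-189, -62 and -28), of which the first is within the printed stretch. No match in the windows of the 8 genes was found for the GAS letters TTCNNNGAA (7.02% of windows) or the AP-1 letters TGANTCA (6.75%). These matches are letters in a window and not measured binding.

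The libraries held 15479402 to 23884938 counts. Smad7 read 53.1 to 61.2 CPM (counts relative to the library total, after TMM scaling) in S7fl/fl and 19.7 to 48.7 in MyS7KO at baseline, 30.4 to 42.0 and 10.5 to 19.9 at day 3, and 57.4 to 70.2 and 16.0 to 33.4 at day 7. The groups did not overlap at any time, although edgeR's adjusted p for Smad7 was 0.999, 0.11 and 0.0702. Xist marked 2 of 3 S7fl/fl and 1 of 3 MyS7KO libraries at baseline, 2 of 5 and 3 of 5 at day 3, and 0 of 3 and 4 of 4 at day 7, and the others carried Y-linked reads, so at day 7 genotype and sex cannot be told apart. In 3 day 3 libraries (MyS7KO replicates 2 and 3, S7fl/fl replicate 4) over 2% of the sex-specific signal was of the other sex. All 9 macrophage markers were read in every library, their sum at 9938 to 21230 CPM. The neutrophil gene Ly6g had no reads in 18 of 23 libraries and at most 3 counts in the others. Of the full list of 12 neutrophil markers, which includes Ly6g, 9 to 12 had reads in each library, with sums of 174 to 424 CPM.

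Levels between genes can be compared only per length of gene, and for that the deposited FPKM values (fragments relative to gene length and library total) were used. Idh2, the mitochondrial NADP-dependent isocitrate dehydrogenase, had the highest mean at baseline (37.5 ± 5.41 FPKM, SD, n = 3, in S7fl/fl and 33.1 ± 5.49, n = 3, in MyS7KO). The next, Mdh1, the cytosolic malate dehydrogenase of the malate-aspartate shuttle, overlapped it in both genotypes (33.3 ± 1.45 and 30.7 ± 4.27 FPKM). Mdh2, Idh1, Ogdh and Cs followed in S7fl/fl at 21.4, 20.6, 18.9 and 16.2 FPKM, each overlapping the next. Fh1 stood apart at 13 FPKM, as did Idh3a at 4.52 and, lowest, Acod1 at 3.32. In MyS7KO baseline libraries Idh3a and Acod1 overlapped, at 4.75 and 4.64 FPKM.

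At day 3 the order changed at the top and at the bottom. Mdh2 (51.8 ± 2.69 and 52.2 ± 3.61 FPKM, n = 5 each) and Mdh1 (48.0 ± 5.30 and 54.6 ± 3.00) overlapped each other and did not overlap the next gene, Idh2 (38.9 ± 2.90 and 41.0 ± 2.58). Acod1 reached 22.9 ± 14.0 and 18.5 ± 5.19 FPKM and ranked above Fh1 and Idh3a in mean, with overlap with Fh1 in both genotypes. It also overlapped Idh3a in MyS7KO, and Cs, Ogdh, Idh1 and Idh2 in S7fl/fl. By median, Acod1 in S7fl/fl (14.2 FPKM) was below Fh1 (15.1). At day 7 Mdh1 had the highest mean in both genotypes, at 42.9 ± 1.12 FPKM (n = 3) and 35.0 ± 4.26 (n = 4), followed by the cytosolic isocitrate dehydrogenase Idh1 at 32.1 ± 5.95 and 33.7 ± 6.68. Mdh1 and Idh1 overlapped at day 7 in MyS7KO and not in S7fl/fl. By library, Mdh1 ranked highest in 11, Idh2 and Mdh2 in 5 each and Idh1 in 2 of the 23, and the lowest rank fell to Idh3a in 19 and to Acod1 in 4.

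**Figure D1:**
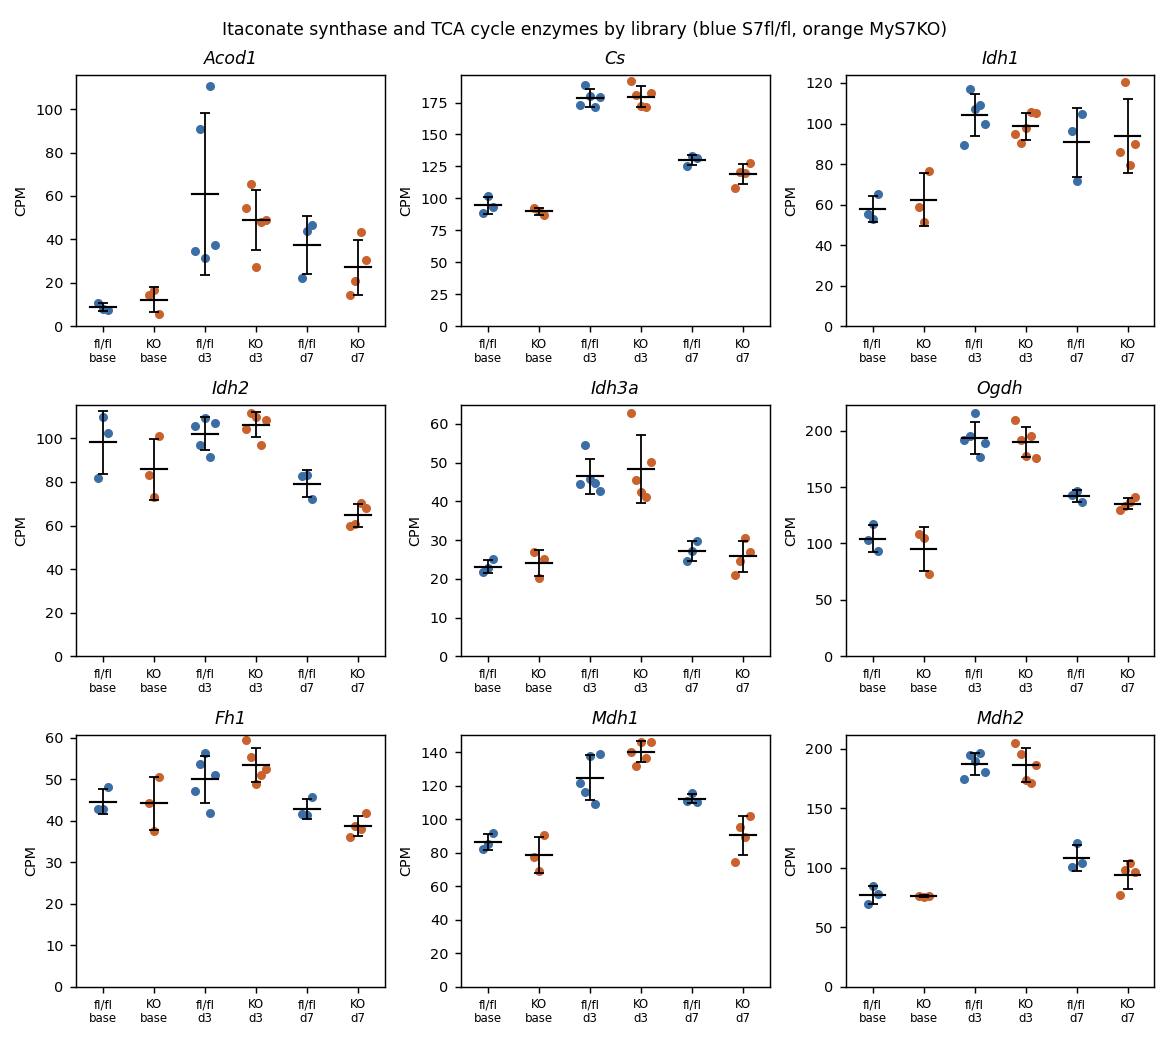
CPM of each gene in each library (points; blue S7fl/fl, orange MyS7KO) with the group mean and SD (black), at baseline (base), day 3 (d3) and day 7 (d7). Mdh2 rose from 69.4 to 84.6 CPM in the S7fl/fl baseline libraries to 175 to 196 at day 3, while Idh2 was at 81.9 to 110 and 91.3 to 109.

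The comparison of day 3 with baseline asked how these enzymes differ between macrophages of the early infarct and those of the uninjured heart. In S7fl/fl hearts 7 of the 9 genes rose and none fell (called at an edgeR adjusted p under 0.05), and the groups of these 7 did not overlap. In MyS7KO hearts all 9 rose, 7 without overlap. Over all genes the groups were apart with higher values for 26.6% in S7fl/fl and 29% in MyS7KO, and with lower values for 31.7% and 31.8%. Of all genes tested 29.9% rose and 34.1% fell in S7fl/fl, and 30.7% rose and 35.2% fell in MyS7KO. The median log2 change was 0.89 over the 9 genes and -0.06 over all genes in S7fl/fl, and 1.00 and -0.10 in MyS7KO. In bulk RNA a change in the mix of cells and a change in RNA per cell cannot be told apart.

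Acod1 (ENSMUSG00000022126, chr14:103046977-103056573, plus strand) read 10.7, 8.03 and 7.65 CPM in the S7fl/fl baseline libraries and 14.2, 16.7 and 5.70 in the MyS7KO ones. At day 3 the S7fl/fl libraries read 34.5, 91.0, 31.3, 111 and 37.2 CPM. The MyS7KO libraries read 54.3, 65.7, 27.4, 48.0 and 48.7. Every day 3 library was above every baseline library, and within S7fl/fl day 3 the replicates 2 and 4 stood far above the other 3. Its rise was 6.90-fold in S7fl/fl (log2 2.79 ± 0.522, SE, adjusted p = 0.000134 by edgeR) and 4.01-fold in MyS7KO (log2 2.00 ± 0.501, adjusted p = 0.00181). With S7fl/fl day 3 replicates 2 and 4 left out the S7fl/fl change was log2 1.96 (adjusted p = 0.000944). Those 2 libraries were also highest in the summed level of 7 classical monocyte markers, at 1458 and 1846 CPM against 722 to 894 in the other 3, and in that of 12 neutrophil markers, at 424 and 398 against 253 to 294. The part of these cells in the Acod1 difference was not tested.

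The entry enzyme Cs, citrate synthase (ENSMUSG00000005683, chr10:128337734-128362479), showed little spread within groups. It rose from 94.6 ± 6.60 CPM (n = 3) to 179 ± 6.84 (n = 5) in S7fl/fl, 1.89-fold (log2 0.92 ± 0.0751, edgeR adjusted p = 7.1e-10), and 2.00-fold in MyS7KO (adjusted p = 1.86e-10). All 10 day 3 libraries lay at 172 to 192 CPM and all 6 baseline libraries at 87.0 to 102. Ogdh, the first subunit of the 2-oxoglutarate dehydrogenase complex (ENSMUSG00000020456, chr11:6291633-6356642), rose 1.86-fold in S7fl/fl, from 104 ± 12.1 to 194 ± 14.3 CPM (adjusted p = 2.81e-07), and 2.00-fold in MyS7KO (adjusted p = 5.4e-08). These enzymes stand before and after the isocitrate dehydrogenases.

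The isocitrate dehydrogenases differed from one another. Idh3a, the catalytic subunit of the NAD-dependent enzyme of the cycle (ENSMUSG00000032279, chr9:54586334-54604661), rose 2.00-fold in S7fl/fl (23.2 ± 1.67 to 46.4 ± 4.62 CPM, edgeR adjusted p = 1.65e-06) and 2.01-fold in MyS7KO (adjusted p = 1.47e-06). Cytosolic Idh1 (ENSMUSG00000025950, chr1:65158616-65186500) rose 1.81-fold, from 57.7 ± 6.53 to 104 ± 10.4 CPM (adjusted p = 2.24e-05), and 1.58-fold in MyS7KO (adjusted p = 0.000346). Mitochondrial Idh2 (ENSMUSG00000030541, chr7:80094846-80115392, minus strand) read 81.9, 110 and 103 CPM in S7fl/fl at baseline and 106, 97.1, 109, 91.3 and 107 at day 3. In MyS7KO it read 83.1, 73.2 and 101 CPM at baseline and 104, 112, 110, 97 and 108 at day 3. The groups overlapped in both genotypes. Idh2 did not pass in S7fl/fl (1.04-fold, adjusted p = 0.655) and rose 1.24-fold in MyS7KO (adjusted p = 0.0142), a call lost without MyS7KO baseline replicate 2 (log2 0.24, adjusted p = 0.0815). The difference between the genotypes in this change of Idh2 did not pass (log2 0.25 ± 0.149, edgeR adjusted p = 0.878).

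Fh1, fumarase, which adds water to fumarate (ENSMUSG00000026526, chr1:175600374-175625635, minus strand), had the second smallest change in S7fl/fl and the smallest in MyS7KO. It was at 44.5 ± 3.03 CPM at baseline and 49.95 ± 5.714 at day 3 in S7fl/fl, 1.12-fold (edgeR adjusted p = 0.162), and rose 1.21-fold in MyS7KO (adjusted p = 0.0229). The MyS7KO call was lost without MyS7KO baseline replicate 2 (log2 0.21, adjusted p = 0.12) or MyS7KO day 3 replicate 1 (0.23, 0.0576). With the 3 libraries of mixed sex signal left out the S7fl/fl change passed (log2 0.27, adjusted p = 0.0292). Fh1 shares 5255 bases with the gene Kmo on the other strand, which averaged 2.34 FPKM against 13.5 for Fh1, and whether the counting used strand is not stated.

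Malate dehydrogenases close the cycle and carry its reducing equivalents across the mitochondrial membrane. Mitochondrial Mdh2 (ENSMUSG00000019179, chr5:135778480-135790398) read 69.4, 84.6 and 77.5 CPM in S7fl/fl and 76.3, 75.1 and 76.3 in MyS7KO at baseline. At day 3 it read 175, 194, 189, 196 and 181 CPM in S7fl/fl and 205, 195, 174, 171 and 186 in MyS7KO. The lowest day 3 library was thus well above the highest baseline library. The rise, 2.42-fold in S7fl/fl (adjusted p = 3.53e-10 by edgeR, log2 1.28 ± 0.0999) and 2.45-fold in MyS7KO (log2 1.29 ± 0.1, adjusted p = 2.65e-10), was the largest of the 8 enzymes other than Acod1. Cytosolic Mdh1 (ENSMUSG00000020321, chr11:21556787-21572367, minus strand) rose 1.44-fold in S7fl/fl, from 86.5 ± 4.81 to 125 ± 13.3 CPM (adjusted p = 0.000113), and 1.78-fold in MyS7KO, from 78.9 ± 10.8 to 140 ± 6.18 (adjusted p = 3.94e-07).

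**Figure D2:**
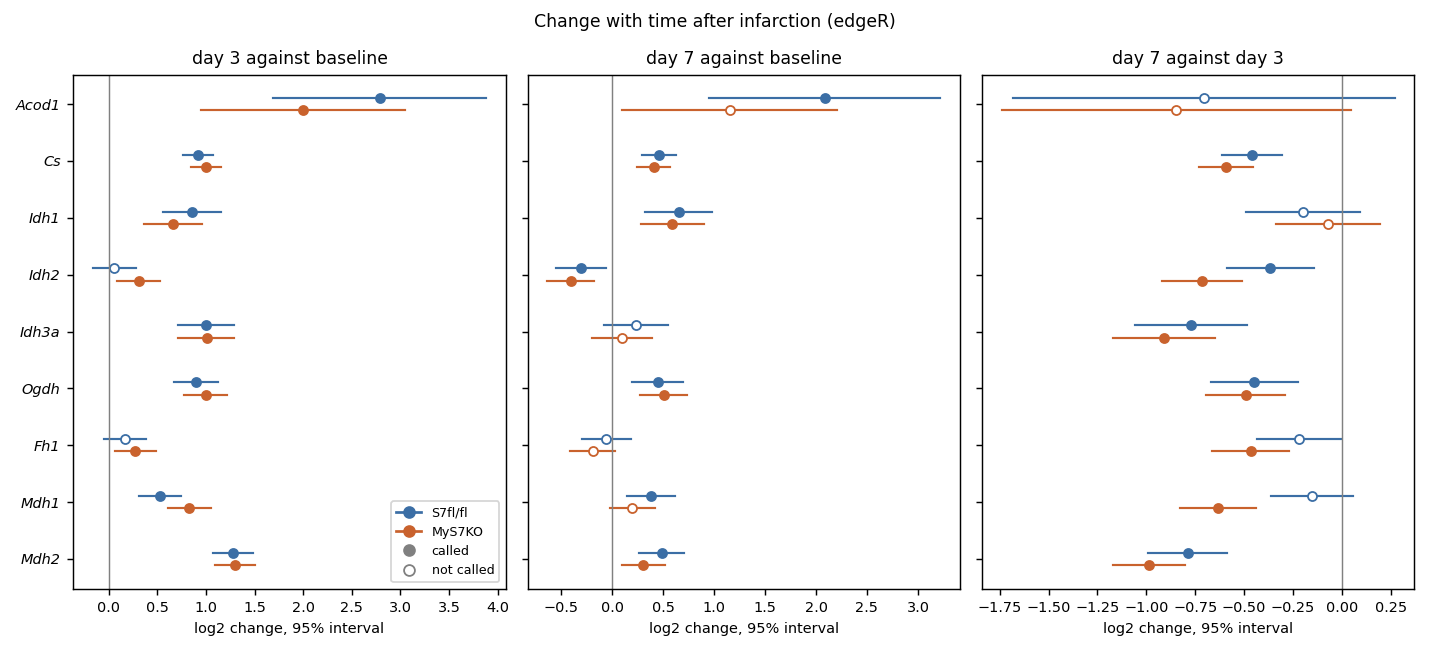
Log2 change of each gene between times in S7fl/fl (blue) and MyS7KO (orange), with 95% intervals; filled points were called at an edgeR adjusted p under 0.05. Idh2 and Fh1 lie nearest to 0 at day 3, and Idh2 is called lower than baseline in both genotypes at day 7.

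At day 7 fewer of the genes were called higher than baseline than at day 3. Both times are set against the same baseline libraries. The day 7 libraries of each genotype were of 1 sex, and those of baseline and day 3 were mixed, so changes to day 7 also carry a difference in sex. In S7fl/fl hearts 6 of the 9 genes were higher than baseline and 1 lower, where 24.8% of all genes were higher and 25.4% lower. In MyS7KO hearts 4 were higher and 1 lower, against 22.2% and 21.8% of all genes. Groups did not overlap for 6 genes in S7fl/fl, all higher, where 28% of all genes were apart with higher and 29.3% with lower values. They did not overlap for 5 genes in MyS7KO, 4 higher and Idh2 lower, against 21.4% and 22.5%. The median log2 change was 0.45 in S7fl/fl and 0.31 in MyS7KO, where that of all genes was -0.02 and -0.01.

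Cs was 1.37-fold above baseline in S7fl/fl (130 ± 4.11 CPM, n = 3, edgeR adjusted p = 7.48e-05) and 1.33-fold in MyS7KO (119.1 ± 8.003, n = 4, adjusted p = 0.000189). Ogdh was 1.36-fold (adjusted p = 0.00341) and 1.42-fold (adjusted p = 0.000913) above, and Idh1 1.57-fold (adjusted p = 0.00155) and 1.51-fold (adjusted p = 0.0027). Mdh2 was 1.40-fold above in S7fl/fl (adjusted p = 0.000639) and 1.24-fold in MyS7KO (adjusted p = 0.0166), the second lost without MyS7KO day 7 replicate 4 (log2 0.25, adjusted p = 0.0574). Mdh1 rose 1.30-fold in S7fl/fl (adjusted p = 0.00822) and did not pass in MyS7KO (1.15-fold, adjusted p = 0.139), where limma-voom called it (adjusted p = 0.0165), as did edgeR without MyS7KO baseline replicate 3 (0.0369) or day 7 replicate 1 (0.0322). Idh3a and Fh1 did not pass in either genotype.

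Idh2 was the only one of the 9 called lower at day 7 than in the uninjured heart. The S7fl/fl libraries read 82.6, 83.2 and 72.0 CPM, 1.24-fold below baseline (log2 -0.31 ± 0.118, edgeR adjusted p = 0.0337). The MyS7KO libraries read 59.8, 60.6, 70.3 and 67.8 CPM, 1.33-fold below (log2 -0.41 ± 0.110, adjusted p = 0.00468). All 4 MyS7KO libraries were below every MyS7KO baseline library, while the S7fl/fl groups overlapped. The S7fl/fl call was lost with no low-count filter (adjusted p = 0.12), with only the groups compared (0.0624), and without S7fl/fl baseline replicate 2 (0.168) or 3 (0.107) or S7fl/fl day 7 replicate 4 (0.151). The MyS7KO call was lost without MyS7KO baseline replicate 3 (log2 -0.27, adjusted p = 0.0591).

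Acod1 read 22.1, 43.6 and 46.5 CPM in S7fl/fl at day 7, all above the baseline libraries, a 4.24-fold rise (log2 2.09 ± 0.540, edgeR adjusted p = 0.00361). In MyS7KO it read 14.2, 20.7, 43.3 and 30.3 CPM and overlapped baseline in 1 library. Its change there was 2.23-fold and did not pass (log2 1.16 ± 0.503, adjusted p = 0.0705). DESeq2 called it (adjusted p = 0.0397), as did limma-voom (0.0498) and limma on log2(FPKM + 0.1) (0.0475). So did edgeR when the libraries of mixed sex signal (adjusted p = 0.0485) or MyS7KO day 7 replicate 1 (0.0378) were left out.

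Between day 3 and day 7 every call among the 9 genes was a fall. In S7fl/fl hearts 5 of the 9 genes fell and none rose, where 11.5% of all genes rose and 10.1% fell, and in MyS7KO hearts 7 fell and none rose, against 20.5% and 19.1%. The groups of these 5 and 7 genes did not overlap, where 12.2% and 16.3% of all genes were apart with lower values and 13.1% and 14.7% with higher values. Mdh2 fell by a log2 of 0.79 in S7fl/fl, 1.73-fold (edgeR adjusted p = 5.09e-06), and 1.98-fold in MyS7KO (log2 -0.99 ± 0.0893, adjusted p = 3.23e-08). Idh3a fell 1.71-fold (adjusted p = 0.000304) and 1.88-fold (adjusted p = 6.18e-06). Cs fell 1.37-fold (adjusted p = 9.93e-05) and 1.51-fold (adjusted p = 5.94e-07), and Ogdh 1.36-fold (adjusted p = 0.00406) and 1.41-fold (adjusted p = 0.000343). Idh2 fell 1.29-fold in S7fl/fl (adjusted p = 0.0164, or 0.104 without S7fl/fl day 7 replicate 4) and 1.64-fold in MyS7KO (adjusted p = 5.87e-06).

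Mdh1 and Fh1 fell in MyS7KO only by the test, 1.55-fold (edgeR adjusted p = 1.45e-05) and 1.38-fold (adjusted p = 0.00043), with 1.11-fold (adjusted p = 0.316) and 1.17-fold (adjusted p = 0.135) lower means in S7fl/fl. The difference between the genotypes in this step was log2 -0.48 ± 0.138 for Mdh1, which did not pass (edgeR adjusted p = 0.416), and -0.25 ± 0.139 for Fh1 (adjusted p = 0.523). It cannot be told apart from sex, which differs between the day 7 groups. With the libraries of mixed sex signal left out Fh1 also passed in S7fl/fl (log2 -0.31, adjusted p = 0.0402). Idh1 did not pass in either genotype (log2 -0.20, 95% interval -0.49 to 0.09, in S7fl/fl, and -0.07, -0.34 to 0.20, in MyS7KO). Nor did Acod1 (log2 -0.70, -1.68 to 0.27, and -0.85, -1.74 to 0.04), whose S7fl/fl value turned to 0.12 (edgeR adjusted p = 0.873) with S7fl/fl day 3 replicates 2 and 4 left out.

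The genotype comparison asked whether loss of Smad7 in lysozyme M-expressing cells alters these genes. None of the 9 was called by edgeR at baseline, day 3 or day 7, where 0.0121%, 0.0121% and 0.0181% of all genes were called in either direction. At an unadjusted p under 0.05 the members numbered 0, 0 and 3 of 9, beside 2.27%, 3.59% and 13.1% of all genes, and DESeq2 and limma-voom called none. The median log2 difference of MyS7KO from S7fl/fl was -0.02, 0.01 and -0.15 over the 9 genes, beside -0.03, -0.00 and -0.01 over all genes.

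The 3 genes with an unadjusted p under 0.05 at day 7 were Mdh1, Idh2 and Mdh2. Mdh1 read 74.7, 95.7, 89.6 and 102 CPM in MyS7KO and 111, 116 and 111 in S7fl/fl, without overlap (log2 -0.31 ± 0.106, 95% interval -0.53 to -0.09, edgeR adjusted p = 0.292). Of all genes 5.63% were apart with lower values in MyS7KO and 3.27% with higher values. Idh2, with the day 7 values given for each library above, also did not overlap (log2 -0.29 ± 0.111, 95% interval -0.52 to -0.07, edgeR adjusted p = 0.321). Mdh2 did overlap, at 77.2 to 104 CPM in MyS7KO and 101 to 121 in S7fl/fl (log2 -0.21 ± 0.0995, edgeR adjusted p = 0.38). Every MyS7KO library at this time carried Xist and every S7fl/fl library Y-linked reads. The summed fibroblast markers were 1775 to 5088 CPM in MyS7KO and 1286 to 3401 in S7fl/fl at day 7. The sum of the 9 macrophage markers was 12320 to 15570 CPM in MyS7KO and 17260 to 21230 in S7fl/fl, without overlap. At day 3 this sum was also apart, at 10130 to 11360 CPM in MyS7KO and 12220 to 13970 in S7fl/fl. Among these 9 is Lyz2, the lysozyme M gene, at 3830 to 4640 CPM in MyS7KO and 6550 to 9530 in S7fl/fl (edgeR adjusted p = 0.00177). Lyz2 was also lower in MyS7KO at baseline and day 3 (edgeR adjusted p = 0.019 and 0.000229). The part of the fibroblast or macrophage markers in the differences of Mdh1, Idh2 and Mdh2 was not tested.

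At day 3 Cs, Mdh2, Ogdh and Idh2 lay close between the genotypes. The 95% interval of the log2 difference was -0.12 to 0.14 for Cs, -0.18 to 0.16 for Mdh2, -0.22 to 0.16 for Ogdh and -0.13 to 0.25 for Idh2. Mdh1 was 1.12-fold higher in MyS7KO in mean and did not pass (edgeR adjusted p = 0.982). The interval of Acod1 was far wider, at -1.14 to 0.50 (log2 -0.32 ± 0.391, adjusted p = 0.982). Its sign turned when S7fl/fl day 3 replicates 2 and 4 (log2 0.51) or the libraries of mixed sex signal (0.07) were left out, and neither value passed.

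**Figure D3:**
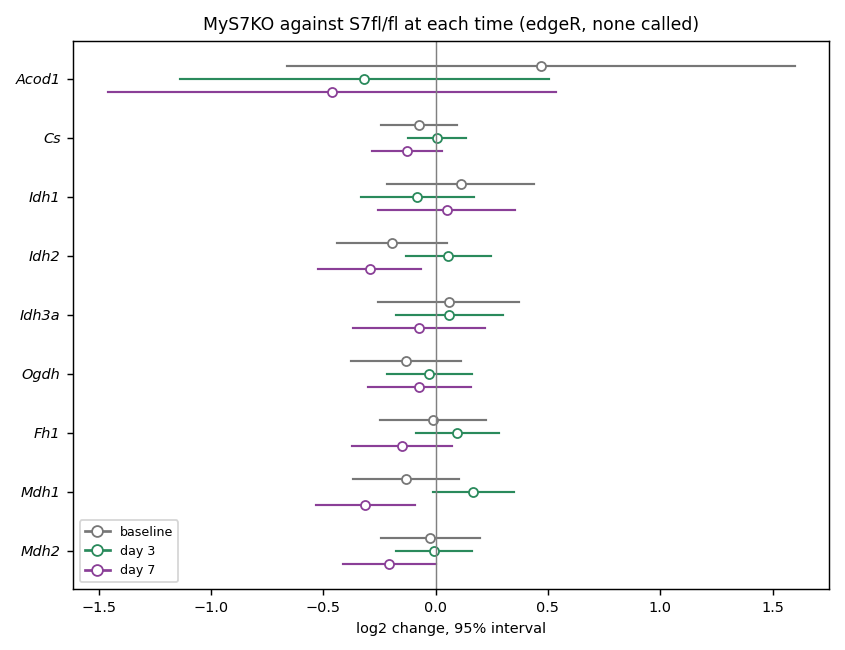
Log2 difference of MyS7KO from S7fl/fl at baseline (grey), day 3 (green) and day 7 (purple), with 95% intervals; open points were not called. The Acod1 intervals are the widest, and the day 7 intervals of Mdh1, Idh2 and, narrowly, Mdh2 lie below 0, although their adjusted p was 0.292, 0.321 and 0.38.

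The change of the genotype effect with time was tested for day 3 against baseline, day 7 against baseline and day 7 against day 3. In each case edgeR called none of the 9, and 0% of all genes. The members with an unadjusted p under 0.05 numbered 1, 0 and 2 of 9, beside 4.48%, 5.21% and 10.4% of all genes, and DESeq2 and limma-voom called none. These were Mdh1 at day 3 against baseline (log2 0.30 ± 0.144, edgeR adjusted p = 0.878), and Mdh1 and Idh2 (log2 -0.35 ± 0.144, adjusted p = 0.447) at day 7 against day 3. At day 7 every MyS7KO library carried Xist and every S7fl/fl library Y-linked reads. In the tests that use day 7, genotype and sex therefore cannot be told apart.

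Mdh2 and Mdh1, and Idh2 and Idh1, are pairs of a mitochondrial and a cytosolic enzyme. The FPKM ratio of Mdh2 to Mdh1 was 0.644 ± 0.0626 (SD, n = 3) in S7fl/fl and 0.701 ± 0.0880 (n = 3) in MyS7KO at baseline. At day 3 it was 1.09 ± 0.153 and 0.958 ± 0.0960 (n = 5 each), and at day 7 it was 0.693 ± 0.0524 (n = 3) and 0.750 ± 0.0656 (n = 4). The ratio of Idh2 to Idh1 went from 1.84 ± 0.344 and 1.48 ± 0.0608 at baseline to 1.06 ± 0.165 and 1.16 ± 0.124 at day 3 and 0.965 ± 0.255 and 0.759 ± 0.169 at day 7. For both ratios the day 3 libraries did not overlap the baseline libraries of their genotype, and the two-sided exact permutation p was 0.0357 in each of these 4 comparisons, the smallest that 5 against 3 libraries allow. After adjustment over the 8 ratio tests it was 0.0714, the lowest value that these group sizes allow. No ratio could therefore have passed at 0.05, and the lack of a call says nothing about the ratios. At day 7 the p for Idh2 over Idh1 was 0.1 in S7fl/fl and 0.0571 in MyS7KO, again the smallest possible there.

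**Figure D4:**
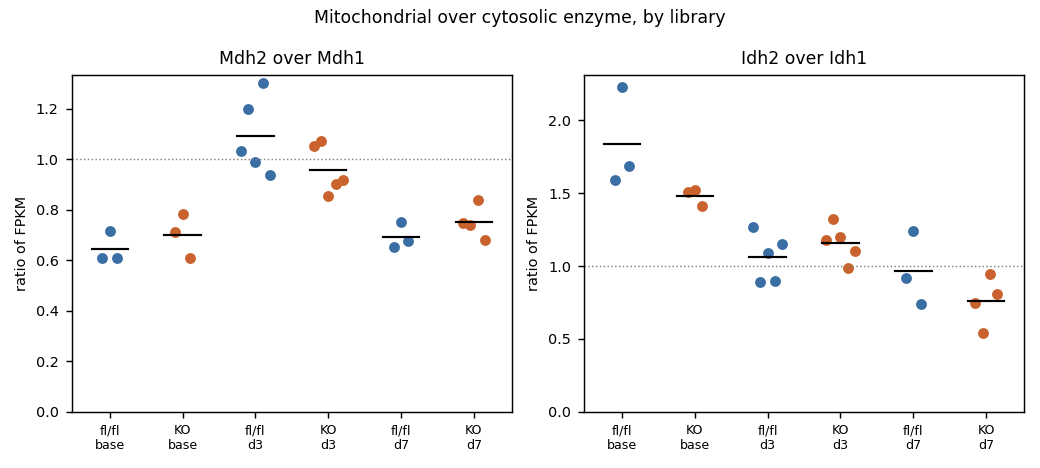
Ratio of the FPKM of the mitochondrial to that of the cytosolic enzyme in each library (points; blue S7fl/fl, orange MyS7KO; black lines are group means; the dotted line is a ratio of 1). Mdh2 over Mdh1 is highest at day 3 (0.853 to 1.30), while Idh2 over Idh1 is highest at baseline (1.41 to 2.23).

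For the gene lists that follow, the shares of all genes called higher and lower were 29.9% and 34.1% in S7fl/fl and 30.7% and 35.2% in MyS7KO at day 3 against baseline. They were 24.8% and 25.4%, and 22.2% and 21.8%, at day 7 against baseline, and 11.5% and 10.1%, and 20.5% and 19.1%, at day 7 against day 3. The remaining subunits of the cycle formed a list of 14 genes. Of 13 tested, 10 rose and none fell at day 3 in S7fl/fl (median log2 0.63), and 9 rose and none fell in MyS7KO (0.56). Dlst, the succinyl transferase of the complex that Ogdh starts, rose 1.81-fold (89.5 ± 4.12 to 162 ± 9.62 CPM, edgeR adjusted p = 2.72e-09) and 1.89-fold (adjusted p = 8.67e-10). Sdhb, the iron-sulphur subunit of succinate dehydrogenase, rose 1.71-fold (adjusted p = 4.45e-07) and 2.04-fold (adjusted p = 7.44e-09). At day 7 they were still 1.45-fold and 1.31-fold (Dlst) and 1.65-fold and 1.61-fold (Sdhb) above baseline, and 6 of 13 were higher with 1 lower in S7fl/fl and 5 higher in MyS7KO. From day 3 to day 7 7 of 13 fell in S7fl/fl and 9 in MyS7KO, among them Dlst (1.24-fold, adjusted p = 0.00386, and 1.44-fold, adjusted p = 3.31e-06) and the succinyl-CoA ligase subunit Sucla2 (1.32-fold, adjusted p = 0.00191, and 1.46-fold, adjusted p = 1.32e-05).

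The partner subunits of Idh3a in the same enzyme, Idh3b and Idh3g, were named after their values were seen. At day 3 Idh3b was at 81.5 ± 5.84 CPM against 71.1 ± 0.818 at baseline in S7fl/fl (edgeR adjusted p = 0.0718), and Idh3g at 68.8 ± 2.64 against 68.4 ± 3.11 (adjusted p = 0.951). In MyS7KO they had adjusted p = 0.0698 and 0.561. Neither passed in either genotype, where Idh3a had risen 2.00-fold and 2.01-fold.

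Genes of pyruvate entry gave 9 higher and 3 lower of 13 at day 3 in both genotypes (median log2 0.52 and 0.48). Pdk1 and Pdk3, kinases that inhibit pyruvate dehydrogenase, rose 2.50-fold (20.1 ± 0.987 to 50.2 ± 9.72 CPM, edgeR adjusted p = 1.6e-07) and 2.01-fold (adjusted p = 6.5e-08) in S7fl/fl, and 2.31-fold (adjusted p = 4.99e-07) and 1.96-fold (adjusted p = 9.85e-08) in MyS7KO. Mpc1, part of the mitochondrial pyruvate carrier, rose 1.89-fold (adjusted p = 1.7e-06) and 2.27-fold (adjusted p = 5e-08). Dlat, the acetyl transferase of pyruvate dehydrogenase, rose 1.83-fold (adjusted p = 2.15e-07) and 1.90-fold (adjusted p = 8.75e-08). At day 7 Mpc1 remained 2.13-fold (adjusted p = 1.42e-06) and 1.97-fold (adjusted p = 3.71e-06) above baseline, while Pdk4, a kinase linked to fat oxidation, was 10.1-fold (9.37 ± 1.96 to 0.917 ± 0.640 CPM, adjusted p = 7.73e-06) and 7.70-fold lower (adjusted p = 8.9e-06). The list gave 4 higher and 1 lower in S7fl/fl and 5 and 2 in MyS7KO at day 7. From day 3 to day 7 it gave 1 higher and 6 lower in each genotype. Pdk3 fell 1.67-fold (adjusted p = 4.21e-05) and 1.61-fold (adjusted p = 1.16e-05), Pdhx, the E3-binding subunit, fell 1.26-fold (adjusted p = 0.0349) and 1.44-fold (adjusted p = 0.000251), and Pdk2 rose 2.22-fold (adjusted p = 0.00101) and 2.13-fold (adjusted p = 0.000331).

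Genes that drain, refill or shuttle cycle intermediates gave 9 higher and 5 lower of 15 at day 3 in both genotypes, the lower share being near that of all genes (34.1% and 35.2%). Got2, the mitochondrial aspartate aminotransferase, which works with Mdh2 in the malate-aspartate shuttle, rose 2.23-fold (46.4 ± 6.01 to 104 ± 7.73 CPM, edgeR adjusted p = 4.35e-09) and 2.21-fold (adjusted p = 4.79e-09). Glul, glutamine synthetase, fell 2.44-fold (1058 ± 44.5 to 434 ± 40.7 CPM, adjusted p = 6.06e-09) and 2.64-fold (adjusted p = 1.42e-09). At day 7 the list gave 8 higher and 3 lower in both genotypes, led by Got1, the cytosolic aminotransferase (2.66-fold, adjusted p = 6.49e-07, and 2.13-fold, adjusted p = 1.06e-05), and the citrate carrier Slc25a1 (1.90-fold, adjusted p = 2.36e-05, and 1.95-fold, adjusted p = 1.11e-05). From day 3 to day 7 it gave 2 higher and 2 lower in S7fl/fl and 3 and 4 in MyS7KO. Malic enzyme Me2 fell 1.64-fold (adjusted p = 1.66e-05) and 1.72-fold (adjusted p = 5.15e-07), Got2 fell 1.39-fold (adjusted p = 0.00183) and 1.49-fold (adjusted p = 4.29e-05), and Pck2, mitochondrial phosphoenolpyruvate carboxykinase, rose 1.65-fold (adjusted p = 0.000374) and 1.56-fold (adjusted p = 0.000228).

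Among 12 genes of itaconate and succinate handling or known targets, 5 rose and 2 fell at day 3 in S7fl/fl and 6 rose and 2 fell in MyS7KO, beside 29.9% and 34.1%, and 30.7% and 35.2%, of all genes. Hif1a, the hypoxia factor whose protein succinate is known to stabilise, rose 4.57-fold (76.2 ± 6.98 to 349 ± 54.8 CPM, edgeR adjusted p = 6.53e-11) and 3.70-fold (adjusted p = 4.37e-10). Atf3, a stress factor that itaconate derivatives are known to induce, fell 6.49-fold (2356 ± 206 to 363 ± 26.1 CPM, adjusted p = 3.08e-14) and 5.70-fold (adjusted p = 8.04e-14), the opposite direction to Acod1. At day 7 Hif1a was 2.68-fold and 2.18-fold above baseline and Atf3 2.91-fold and 2.41-fold below, in a list of 4 higher and 2 lower in S7fl/fl and 5 and 2 in MyS7KO. From day 3 to day 7 the list gave 4 higher and 2 lower, and 4 and 3. Atf3 rose 2.23-fold (adjusted p = 2.21e-07) and 2.36-fold (adjusted p = 1.44e-08), the antioxidant regulator Nfe2l2 rose 1.55-fold (adjusted p = 9.61e-05) and 1.51-fold (adjusted p = 2.55e-05), and haem oxygenase Hmox1 fell 3.04-fold in MyS7KO (adjusted p = 1.79e-05), with a 1.57-fold lower mean in S7fl/fl (adjusted p = 0.073).

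Inducers of Acod1 and inflammatory genes known to be induced with it made a list of 14. Of these, 5 rose and 2 fell at day 3 in S7fl/fl and 4 rose and 2 fell in MyS7KO, the higher share being near that of all genes (29.9% and 30.7%). Ptgs2, cyclooxygenase-2, rose 19.6-fold (109 ± 31.2 to 2129 ± 657 CPM, edgeR adjusted p = 2.43e-11) and 13.4-fold (adjusted p = 1.02e-10). Irf1, an interferon-responsive factor known to drive Acod1, fell 4.26-fold (440 ± 77.6 to 103 ± 17.2 CPM, adjusted p = 2.62e-08) and 4.22-fold (adjusted p = 2.62e-08). At day 7 the list gave 5 higher and 2 lower in both genotypes, with Ptgs2 10.1-fold and 5.12-fold and the receptor Tlr2 3.08-fold and 2.05-fold above baseline. From day 3 to day 7 it gave 3 higher and 2 lower, and 4 and 2. Tlr2 rose 2.19-fold (adjusted p = 1.56e-07) and 1.78-fold (adjusted p = 9.15e-07), Irf1 rose 1.89-fold (adjusted p = 0.00298) and 1.90-fold (adjusted p = 0.000702), and Ptgs2 fell 1.95-fold (adjusted p = 0.00377) and 2.61-fold (adjusted p = 1.84e-05).

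Across these 5 lists edgeR called 0 of 67 genes between the genotypes at any time, with 4, 1 and 12 at an unadjusted p under 0.05 at baseline, day 3 and day 7, where the share of all genes was 2.27%, 3.59% and 13.1%. At day 7 DESeq2 called Hmox1 and Nos2 and limma-voom called Hmox1. The shares of all genes called by DESeq2 and limma-voom are not given here, so these calls cannot be weighed against them. At this time every MyS7KO library carried Xist and every S7fl/fl library Y-linked reads. Hmox1 was at 1199 ± 577 CPM (n = 4) in MyS7KO and 2458 ± 1134 (n = 3) in S7fl/fl (edgeR adjusted p = 0.213). Nos2 was at 32.7 ± 52.3 CPM in MyS7KO, an SD above the mean, and 3.25 ± 1.46 in S7fl/fl (edgeR adjusted p = 0.27).

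The genes whose log2 CPM over the 23 libraries was most like that of each member were taken from 11187 genes, and the correlations describe libraries that share time and preparation. For Acod1 they included Slpi (Pearson r = 0.938), a secreted protease inhibitor, Ifi205 (0.931), Nrg1 (0.916) and Chic2 (0.914). Within the 10 day 3 libraries these r were 0.772, 0.916, 0.797 and 0.846. For Mdh2 they were Atp5b (0.989, and 0.889 within day 3), the catalytic beta subunit of ATP synthase, Cyc1 (0.987 and 0.556), cytochrome c1, and Eif3b (0.985 and 0.322). For Idh3a they were Atp5b (0.976, and 0.917 within day 3), Trap1 (0.968 and 0.891) and Bccip (0.965 and 0.537). For Ogdh they were Got2 (0.970), Gpat3 (0.970) and Sf3b4 (0.969). Within day 3 the r of Gpat3 with Ogdh was -0.226, and those of Got2 and Sf3b4 were 0.533 and 0.538. Cs was most like Psmd2 (0.992), Ppm1g (0.989) and Rpn2 (0.988), whose r were 0.210, 0.103 and 0.222 within day 3. Idh1 was most like Atg5 (0.957), Ostm1 (0.936) and Plekhb2 (0.931), and Idh2 like Hdac1 (0.946), Prps1 (0.913) and Orc6 (0.904). Within day 3 these r were 0.505, 0.604 and 0.592 for Idh1 and 0.366, 0.75 and 0.712 for Idh2. Fh1 was most like Hadhb (0.898), the beta subunit of the trifunctional protein of fat oxidation, Adsl (0.878), which releases fumarate in purine synthesis, and Utp15 (0.852). Mdh1 was most like Selenof (0.976), Polr3k (0.972) and Ppia (0.971). Within day 3 the r were 0.841, 0.533 and 0.61 for the Fh1 genes and 0.813, 0.895 and 0.853 for the Mdh1 genes.

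Among the members Cs and Mdh2 had the highest Pearson r over the 23 libraries (0.981), and Cs and Idh3a the highest within the 10 day 3 libraries (0.892), where Cs and Mdh2 had 0.713. Acod1 and Idh2 showed r = 0.120 over all libraries and -0.705 within day 3, and Acod1 and Mdh1 0.642 and -0.719. S7fl/fl replicates 2 and 4 were the day 3 libraries highest in Acod1 and, with 116 and 109 CPM, lowest in Mdh1.

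Markers of other cells also differed between the times. The sum of 14 cardiomyocyte markers was 88.6 to 140 CPM at baseline, 19.2 to 43.0 at day 3 and 21.5 to 84.1 at day 7. Endothelial markers (8 genes) summed to 1230 to 2592 CPM at baseline, 355 to 873 at day 3 and 209 to 1367 at day 7, and fibroblast markers (8 genes) to 505 to 1062, 248 to 1220 and 1286 to 5088. B cell markers (6 genes) summed to 136 to 207, 27.4 to 58.5 and 70.2 to 126 CPM, and T and NK cell markers (8 genes) to 27.8 to 77.4, 5.76 to 12.4 and 8.30 to 18.1. The sum of 7 classical monocyte markers was 164 to 249 CPM at baseline, 680 to 1846 at day 3 and 299.5 to 730 at day 7. That of 7 resident macrophage markers was 5031 to 8025 CPM at baseline, 1497 to 2875 at day 3 and at most 1864 at day 7. The sum of 12 cell cycle genes was 447 to 549, 563 to 1120 and 523 to 846 CPM. Neutrophil markers summed to 174 to 246, 222 to 424 and 246 to 387 CPM. The part of these cell markers and cell cycle genes in the changes of the 9 genes, or of the genes in the pathway lists such as Pdk4, was not tested.

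**Figure D5:**
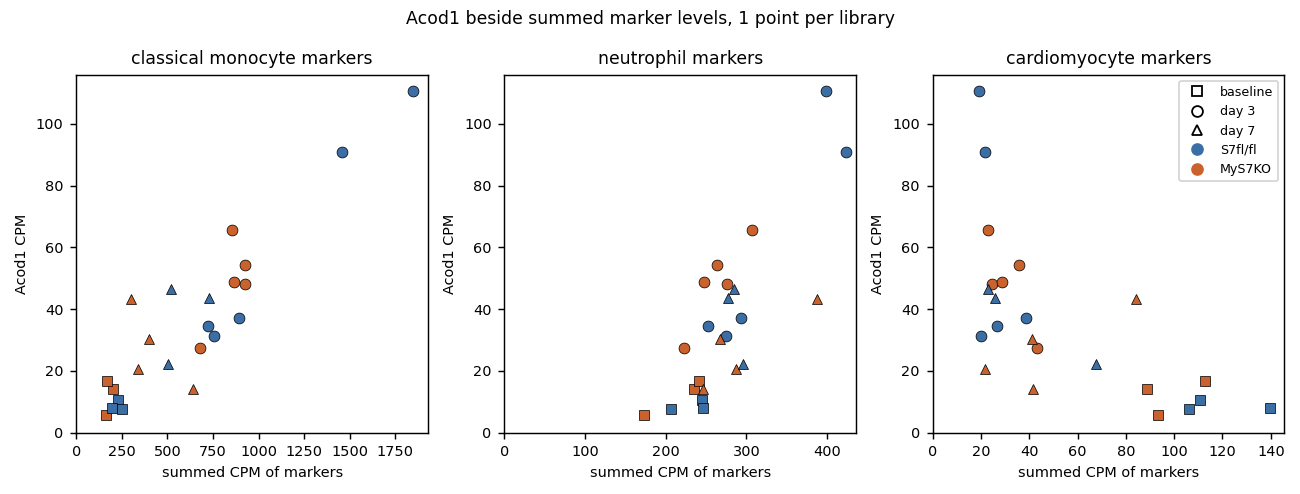
Acod1 CPM against the summed CPM of 7 classical monocyte, 12 neutrophil and 14 cardiomyocyte markers, 1 point per library (squares baseline, circles day 3, triangles day 7; blue S7fl/fl, orange MyS7KO). The 2 S7fl/fl day 3 libraries at 91.0 and 111 CPM of Acod1 are the highest in the monocyte sum (1458 and 1846) and the neutrophil sum (424 and 398).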

How the data were processed

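The authors deposited a table of read counts per gene, whole numbers used as they stand, and a table of FPKM values, which equal count over gene length and 1 constant per library within 1% for 100% of genes with at least 100 counts. Builds GRCm38.p6 and mm10 appear in the submitters' processing notes, as do HTSeq 0.6.1, Cufflinks 2.1.1 and TopHat2 2.0.9, with no role given, and the strandedness of counting is not given in the sources used here. Counts were fitted with edgeR 4.0.16 (R 4.3.3): TMM scaling, filterByExpr on the 6 groups, robust quasi-likelihood tests with 1 coefficient per group over 23 libraries, two-sided p adjusted by Benjamini-Hochberg over 16545 genes and called under 0.05. The test was tried on simulated counts. DESeq2 1.42.0 and limma 3.58.1 (pseudocounts of 1 and 0.1 for FPKM), RLE scaling, no filter, a replicate block, a sex covariate and left-out libraries were alternatives. Leaving out S7fl/fl day 3 replicates 2 and 4 and the ratio tests were added after the data were seen. The genes and lists were chosen with earlier results of these data known. All members were named in each comparison, the 2 called genes of lowest p in each pathway list and comparison, and the 5 (Acod1) or 3 (others) genes most correlated with a member, except that 2 genes the rule gives are not reported here. All 35 pairs of libraries of 1 group were further apart than counting error alone gives (chi-square over degrees of freedom 9.34 to 56.6). Counts per member and library ran from 115 (Acod1) to 4402 (Mdh2). There were 103 genes that share a name, none of them a member.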

Additional observations from a re-analysis of the deposited data

Results flagged for a closer look

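Of 27 sets of 1 gene in 1 group with at least 4 libraries, 1 held a library far from the others by Dixon's criterion, where chance gives about 1 in 20. Idh3a read 54.5 CPM in S7fl/fl day 3 replicate 2 against 42.7 to 45.8 in the other 4. The same library was the second highest of its group in Acod1 (91.0 CPM) and the highest in Cs (189 CPM).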

How the results depend on the processing

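The number of members called kept within 1.5 times of its value in all 12 comparisons under every setting run, and no member that was called changed direction. With each library left out in turn, 7 members stayed called at day 3 against baseline in S7fl/fl, 7 to 9 in MyS7KO, 6 to 7 and 4 to 7 at day 7 against baseline, and 4 to 5 and 7 at day 7 against day 3. In the genotype comparisons 0 of 513 values of a member under an alternative passed. With a replicate block the counts were 7, 7 and 5 in S7fl/fl and 9, 5 and 7 in MyS7KO, as without it. The replicate numbers were not taken as a pairing, since the 10 same-numbered pairs had residual correlations of -0.29 to 0.226. Acod1, with as few as 115 counts in a library, had the widest intervals, and its day 3 genotype interval ran from a log2 of -1.14 to 0.50. Whether counting used strand is not stated, and Fh1 and Mdh1 overlap genes on the other strand. On their own strand Idh2 shares 1831 bases with Gm45203, Cs 135 with Gm23182 and Mdh1 89 with Gm22990. These averaged 0.0905, 0.202 and 0.0704 FPKM over the 23 libraries.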
